A study of Mus musculus with 29 samples.

Results

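The comparison described here sets the CD150lo HSC of WT mice against the CD150neg MPP of the same mice, by RNA sequencing of sorted bone marrow cells, and it rests on 10 of the 29 libraries of the series. The members were chosen by the sort label and the WT/WT genotype alone. There were 5 CD150lo and 5 CD150neg libraries, 1 of each from each of 5 C57BL/6J mice aged 12.42 to 13.28 weeks. The labels name no engineered allele and no treatment for these mice. They are called mice 1 to 5 below in the order of their codes. The remaining libraries of the series came from the CD150hi HSC of the same mice and from mice heterozygous for the 5A3 deletion (5A3+/del), which lack 1 copy of a segment of chromosome 5 syntenic to human 7q22. The ages of the 5A3+/del mice also began at 12.42 weeks but reached above 13.28 weeks, the highest age of the WT mice. All populations were sorted as c-kit+ lineage- Sca-1+ CD41- CD48- cells and were divided by CD150 staining. The labels name the CD150neg cells HSC and the study names them MPP (multipotent progenitors). Each library was amplified from a small amount of total RNA.

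Hematopoietic stem cells self-renew over the life of the animal and give rise to all blood lineages, whereas multipotent progenitors keep the capacity for several lineages but have limited self-renewal. CD150, the product of Slamf1, is a cell surface receptor of the SLAM family whose loss within the CD48- compartment is used to separate the progenitors from the stem cells. Along the same path mouse progenitors are known to gain CD34 and the receptor tyrosine kinase Flt3. The comparison asks which transcripts differ across the last step of that CD150 gradient, from low to absent.

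The WT libraries held between 21229513 and 38797621 fragments, as recovered from the deposited FPKM (fragments counted in a gene, scaled to its exon length and to the total of the library), and between 12818 and 13800 genes reached an FPKM of 1. Values below are FPKM after quantile normalization over the 29 libraries, with means ± SD over the 5 mice. Log2 differences are CD150neg MPP minus CD150lo HSC on the log2(FPKM + 1) scale with their SE from limma, so a negative value means a lower level in the MPP. The spread behind the SE and the p-values was estimated in the fit over all 29 libraries. A gene was called at a Benjamini-Hochberg adjusted p under 0.05 over the 15409 genes kept. The Pearson correlation of log2 values between replicates ranged from 0.922 to 0.964, and that between both populations of 1 mouse from 0.917 to 0.973, and the ranges overlapped. The labels do not say whether the mice were littermates or were sorted on the same day.

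The sorted surface markers were examined first. Slamf1 was at 2.13, 1.63, 0.95, 2.43 and 0.783 in the CD150lo HSC of mice 1 to 5 and at 0.176, 0.102, 0.169, 0.121 and 0.143 in their CD150neg MPP. The groups did not overlap, with 64 to 281 fragments per CD150lo library and 1 to 31 per CD150neg library. Its log2 difference was -1.13 (SE 0.21) with an adjusted p of 0.0686, and since CD150 staining defined the populations this is a check of the sort. In the CD150hi HSC the level was 14.4 ± 1.04. Kit and Ly6a, which encode c-kit and Sca-1, were selected for in both gates and had log2 differences of 0.06 (SE 0.11) and 0.07 (SE 0.16). Ptprc and Itga2b, which encode CD45 with its B220 form and CD41, differed by -0.02 (SE 0.14) and -0.06 (SE 0.23). Cd48, whose protein was selected against in both gates, was at 1.08, 1.66, 3.18, 2.48 and 5.59 in the CD150lo HSC and at 5.58, 3.26, 11, 4.33 and 7.28 in the CD150neg MPP. The CD150neg library was the higher in each mouse while the groups overlapped, and the difference of 0.96 (SE 0.25) had an adjusted p of 0.152. Ly6c1, 1 of the genes for the Gr-1 antigen, was likewise higher in 5 of 5 mice at 0.68 (SE 0.27) and had an adjusted p of 0.398. Cd3e, Cd8a and Ly6g did not reach the filter on low values. The largest of these counts was 45 fragments of Cd3e in the CD150neg library of mouse 4.

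Of all genes kept, 1 passed the adjusted threshold, which is 0.00649% of the genes tested. This was Tgm2, which encodes the protein cross-linking enzyme transglutaminase 2 and belongs to the list of HSC identity genes. Tgm2 (ENSMUSG00000037820, mm9 chromosome 2, 157942138 to 157972172, minus strand) was at 8.86, 11.3, 7.93, 9.18 and 5.96 in the CD150lo HSC of mice 1 to 5 and at 4.19, 3.72, 3.21, 4.8 and 2.83 in the CD150neg MPP. The lowest CD150lo library lay above the highest CD150neg library. Tgm2 fell by 1.01 (SE 0.13) on the log2 scale with an adjusted p of 0.00359, from a level that stood at 28.3 ± 3.07 in CD150hi HSC. In sorted bulk RNA a lower level can be fewer cells with the transcript or less of it in each cell, and these cannot be told apart. The call was lost without mouse 2 (adjusted p = 0.0935) and in fits of the 15 WT libraries alone (0.0676) or the 10 compared libraries alone (0.26). These fits have fewer degrees of freedom and their own estimate of the spread, and the cause of the loss was not tested. The log2 difference in all of the 19 alternative fits lay between -1.21 and -0.84. The end at -0.84 came from the mean over 9 mice. That fit takes in 5A3+/del mice and weights the WT and 5A3+/del differences equally.

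Below that threshold 1531 genes had an unadjusted p under 0.05. Of the genes tested 4.41% were higher in the CD150neg MPP at that level (680 genes) and 5.52% were lower (851 genes). These shares are the background against which each gene list below is read. The libraries of both populations did not overlap for 2.27% of genes (350), while 6.81% of genes were higher in the MPP in all 5 mice and 6.62% were lower in all 5. With no block for the mouse, 5 genes were called higher and 24 lower. A block treated as random called 16 higher and 49 lower, of which 23 of the lower ones were pseudogenes. Leaving out mouse 5 gave 12 higher and 41 lower, again with 23 pseudogenes among the lower ones. Except for Tgm2 and for the genes that the naming rule always includes, the genes below were named after their values were seen, and none of them passed the adjusted threshold in the fit reported.

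**Figure D1:**
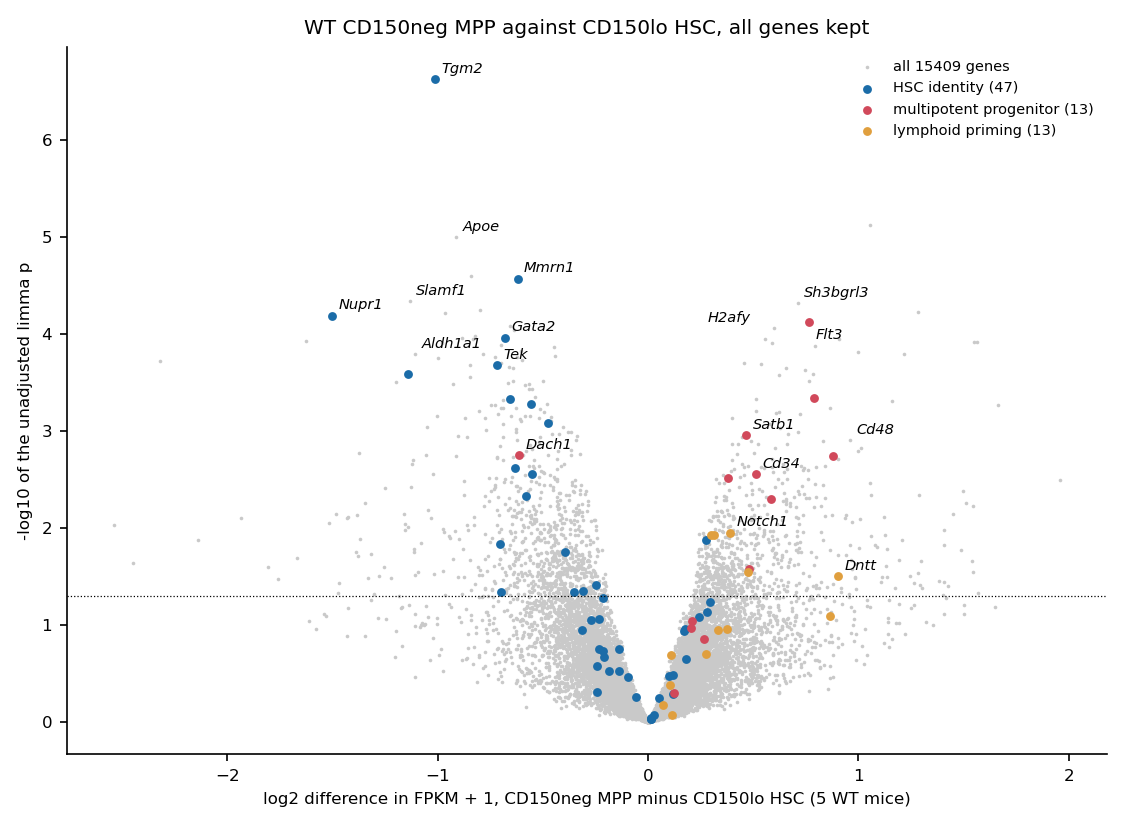
Log2 difference between WT CD150neg MPP and CD150lo HSC (horizontal axis, FPKM + 1 scale) against the -log10 of limma's unadjusted value (vertical axis) for the 15409 genes kept, with 3 gene lists in color and a dotted line at the unadjusted level of 0.05. Tgm2 stands alone at the top left, most colored HSC identity genes near the top lie left of 0, and the multipotent progenitor and lymphoid genes lie right of 0, with Dach1 as an exception.

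Of 47 genes of stem cell identity, all of which were kept, 32 had a negative difference and 15 a positive one. Among them 1 was called (Tgm2), 18 were lower at an unadjusted p under 0.05 and 1, Ifitm3, was higher, against the background of 5.52% and 4.41%. The median log2 difference was -0.233, beside 0.007 over all genes, and was negative in each mouse (-0.291, -0.178, -0.171, -0.25 and -0.261). Over the 19 alternatives it lay between -0.294 and -0.168, with 13 to 21 lower members. The ends -0.168 and 21 came from the mean over 9 mice, which takes in 5A3+/del mice. In all 5 WT mice 14 members were lower. Members that regulate transcription were among the 18 that were lower at the unadjusted level. Gata2, a zinc finger factor required for stem cell maintenance, was at 64.3, 82.3, 70.1, 60.5 and 47.4 in the CD150lo HSC and at 36.8, 43.1, 44.8, 34.9 and 39.2 in the CD150neg MPP. The groups did not overlap and the difference of -0.68 (SE 0.14) had an adjusted p of 0.0686. Hoxb5, a homeobox gene, differed by -0.56 (SE 0.13) and was lower in 4 of 5 mice. Gfi1b, a transcriptional repressor that acts in the erythroid and megakaryocytic lineages and in stem cells, differed by -0.55 (SE 0.16). It was lower in 4 of 5 mice, and Mllt3 differed by -0.25 (SE 0.11).

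Secreted and surface proteins of the same list showed differences of similar size. Mmrn1, which encodes the adhesive glycoprotein multimerin 1, was at 33.1, 35.1, 27.9, 35.4 and 37.3 in the CD150lo HSC and at 19.7, 18.5, 20.3, 26.9 and 23.2 in the CD150neg MPP. Every CD150lo library was above every CD150neg library, and the difference was -0.62 (SE 0.11, adjusted p = 0.0686). Tek, which encodes the angiopoietin receptor Tie2, was at 3.77, 5.91, 8.32, 5.44 and 5.8 and then at 2.9, 3.87, 2.97, 2.26 and 3.53. It was lower in all 5 mice by a log2 difference of -0.72 (SE 0.16), although the groups overlapped by the CD150neg library of mouse 2. Its ligand gene Angpt1 was lower by less, with -0.31 (SE 0.14) and levels of 131 ± 30.5 and 105 ± 21.8. Esam, an endothelial adhesion molecule also carried by stem cells, differed by -0.48 (SE 0.12) without overlap between groups.

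Other members of the list lay on both sides of these values. Nupr1, a stress-inducible nuclear protein, was at 3.38, 4.15, 2.13, 4.37 and 2.26 in the CD150lo HSC and at 0.754, 0.569, 0.125, 0.404 and 0.564 in the CD150neg MPP. The groups did not overlap, with 6 to 55 fragments per CD150neg library, and the difference was -1.50 (SE 0.29, adjusted p = 0.0686). Sult1a1, a sulfotransferase, differed by -1.14 (SE 0.25), and Socs2, a feedback inhibitor of cytokine signaling, by -0.66 (SE 0.15). The calcium channel gene Trpc6 differed by -0.63 (SE 0.18) and Pdzk1ip1 by -0.58 (SE 0.18).

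Several well known stem cell genes did not pass even the unadjusted level. Procr, which encodes the protein C receptor EPCR, was at 54.7 ± 7.45 in the CD150lo HSC and 49.7 ± 7.04 in the CD150neg MPP, with a difference of -0.14 (SE 0.13). The difference of Mecom, which encodes the transcription factor EVI1, was -0.22 (SE 0.10) and was in the same direction in 5 of 5 mice. Hlf, a leucine zipper factor, was at 237 ± 40.1 and 266 ± 38.5 and differed by 0.17 (SE 0.10). The largest adjusted p among Procr, Mecom and Hlf was 0.799 and the smallest 0.507, so that no difference was detected in these genes at this number of mice.

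Of 13 kept members of the list of multipotent progenitor genes, 12 had a positive difference and 1 a negative one. Among them 8 were higher at an unadjusted p under 0.05 and 1 was lower, and the median difference was 0.467, with values of 0.543, 0.456, 0.432, 0.364 and 0.388 in mice 1 to 5. All 8 were higher in each of the 5 mice, as were 6.81% of all genes. The 8 were picked on the differences of these same mice, so this is no separate support. Over the alternatives the median lay between 0.366 and 0.485. Flt3, the receptor of the cytokine Flt3 ligand, was at 27.2, 36.4, 20.3, 33.2 and 31.3 in the CD150lo HSC and at 46, 60.2, 42, 58.7 and 46.5 in the CD150neg MPP. The groups did not overlap and the difference was 0.76 (SE 0.15) with an adjusted p of 0.0686. Already in the CD150lo HSC the level was well above that of the CD150hi HSC, which was 2.87 ± 0.72. Cd34, a sialomucin, was at 105, 109, 97.2, 134 and 135 and then at 189, 155, 146, 169 and 170.0. Its groups did not overlap either, with a difference of 0.51 (SE 0.15, adjusted p = 0.218).

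Other members had differences of similar size. Satb1, a chromatin organizer that acts in lymphoid specification, differed by 0.47 (SE 0.12, adjusted p = 0.144). Tespa1, a T cell receptor signaling adaptor, differed by 0.88 (SE 0.24), and the leukocyte surface genes Cd53, Cd27 and Emb by 0.58 (SE 0.18), 0.48 (SE 0.20) and 0.38 (SE 0.11). The exception in the list was Dach1, a transcriptional corepressor, which was at 9.91 ± 2.92 in the CD150lo HSC and 6.16 ± 1.76 in the CD150neg MPP and differed by -0.61 (SE 0.17).

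**Figure D2:**
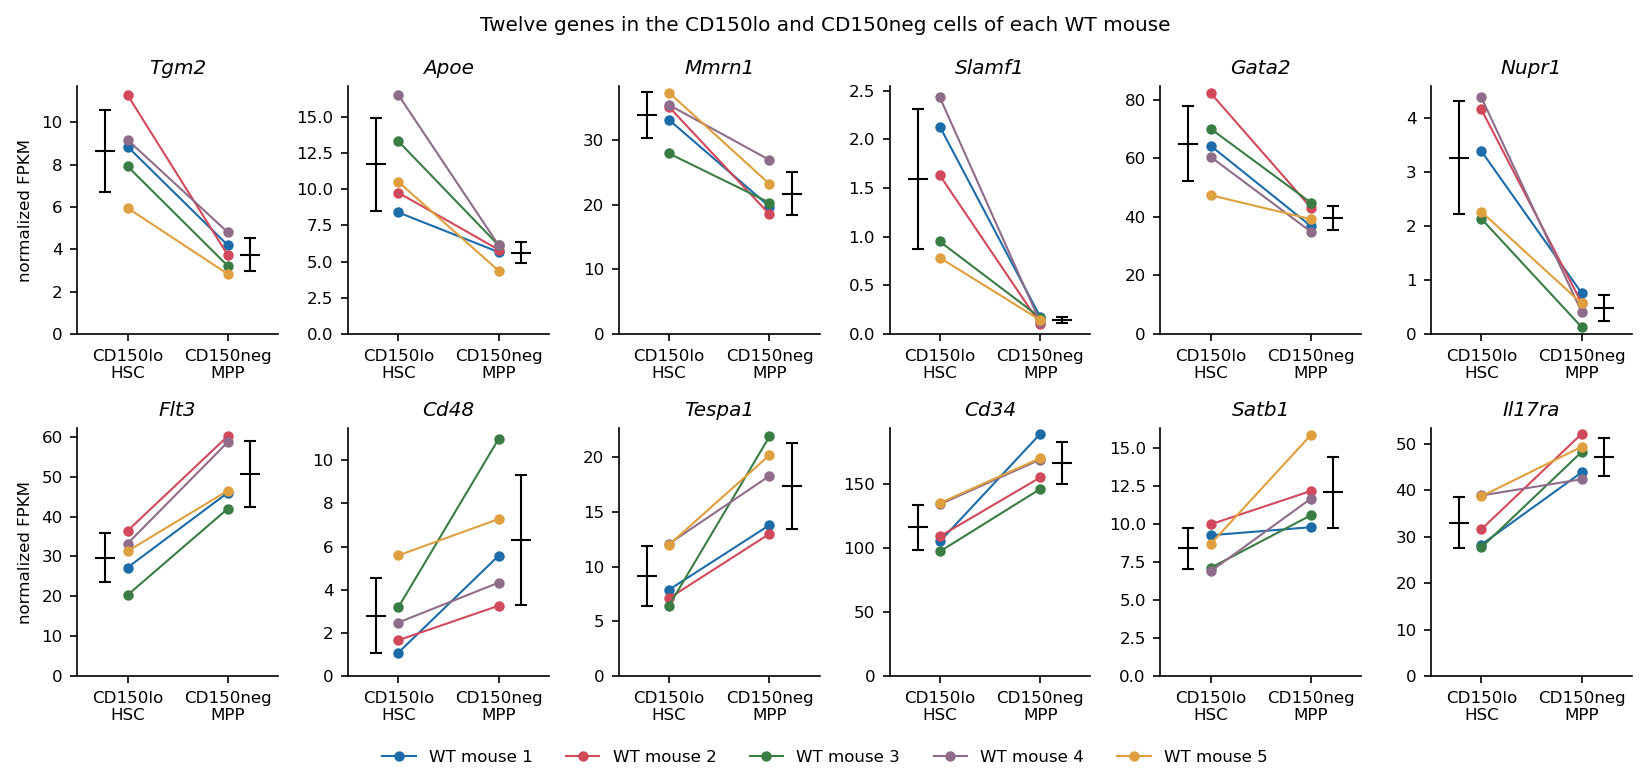
Normalized FPKM (vertical axes, each from 0) of 12 genes in the CD150lo HSC and CD150neg MPP of each WT mouse, with lines joining libraries of 1 mouse and black bars for the mean ± SD of 5 mice. Lines of the upper 6 genes descend and those of the lower 6 genes ascend in every mouse, while the groups overlap for Cd48 and Satb1.

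The bases upstream of the annotated start are shown for 4 of these genes, because they carried the smallest p values in both lists among genes with a matching RefSeq entry whose first transcribed bases were found in the reference transcripts. Of the 26 genes made up of the 18 lower HSC identity genes and the 8 higher multipotent progenitor genes, which leaves out Ifitm3 and Dach1, 18 had a RefSeq entry (GRCm38.p6), and each run below holds the 250 bases before the start, 5' to 3' on the strand of the gene. The letters searched on both strands were AGATAA for the GATA factors, CCGGAA for the ETS factors, CAGCTG for the E-box and TGTGGT for the RUNX factors. No match overlapped another, and capitals mark a match. The runs are Nupr1 at chr7:126625471-126625720 (minus strand), Gata2 at chr6:88193641-88193890 (plus strand, the first of 2 starts), Tek at chr4:94739039-94739288 (plus strand) and Flt3 at chr5:147400490-147400739 (minus strand).
Nupr1: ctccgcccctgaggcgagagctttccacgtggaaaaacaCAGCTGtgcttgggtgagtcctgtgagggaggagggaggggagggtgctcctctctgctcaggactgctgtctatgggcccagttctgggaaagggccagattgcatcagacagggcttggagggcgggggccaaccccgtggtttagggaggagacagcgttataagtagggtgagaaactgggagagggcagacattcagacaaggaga
Gata2: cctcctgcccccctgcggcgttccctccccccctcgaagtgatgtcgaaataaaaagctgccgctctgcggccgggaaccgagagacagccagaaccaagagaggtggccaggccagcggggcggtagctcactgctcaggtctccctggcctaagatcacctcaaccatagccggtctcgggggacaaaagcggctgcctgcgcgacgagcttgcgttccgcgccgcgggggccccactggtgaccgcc
Tek: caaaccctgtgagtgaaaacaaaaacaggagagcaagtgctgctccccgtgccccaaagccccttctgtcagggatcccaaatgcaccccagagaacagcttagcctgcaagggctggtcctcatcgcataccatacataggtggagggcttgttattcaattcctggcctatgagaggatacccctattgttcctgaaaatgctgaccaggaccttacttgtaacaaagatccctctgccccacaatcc
Flt3: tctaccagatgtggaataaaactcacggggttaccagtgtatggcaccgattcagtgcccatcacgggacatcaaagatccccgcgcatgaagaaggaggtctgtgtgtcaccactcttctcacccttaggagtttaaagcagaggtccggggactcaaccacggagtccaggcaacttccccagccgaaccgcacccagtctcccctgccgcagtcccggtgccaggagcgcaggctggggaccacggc
The E-box letters were present in Nupr1 and, in all, in 3 of the 12 matched HSC identity genes that were lower, beside 12.8% of the 27025 genes of the table. The GATA letters were in 0 of those 12, beside 10.3% of all genes, the ETS letters in 1 (12.2%) and the RUNX letters in 0 (14.2%). Of the 6 matched multipotent progenitor genes that were higher, 1 (Cd53) had the RUNX letters and 0 had the E-box, GATA or ETS letters. These windows were searched as letters only, and nothing follows from them about binding.

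Lymphoid priming genes, which mark the earliest bias of progenitors to the lymphoid lineages, were all on the positive side. Of 13 kept members, 13 had a positive difference, 5 passed the unadjusted level as higher and 0 as lower, with a median of 0.315, and with 0.162, 0.461, 0.271, 0.228 and 0.251 in mice 1 to 5. Dntt, which encodes the terminal transferase of lymphoid precursors, was at 3.43, 4.48, 7.91, 6.83 and 10.4 in the CD150lo HSC and at 10.4, 8.05, 13.2, 13.1 and 20.4 in the CD150neg MPP. It was higher in each mouse by a log2 difference of 0.90 (SE 0.39) with an adjusted p of 0.438, while the level in CD150hi HSC was 0.0638 ± 0.0494. Notch1, the receptor of T cell commitment, differed by 0.39 (SE 0.14) without overlap between groups. The transcription factor genes Ikzf1 and Mef2c differed by 0.32 (SE 0.11) and 0.30 (SE 0.11), and the chemokine receptor gene Ccr9 by 0.48 (SE 0.20). The genes of committed lymphocyte precursors on the list, Il7r, Rag1, Rag2, Pax5, Igll1, Vpreb1 and Ikzf3, did not reach the filter. Leaving out mouse 1 or mouse 2 reduced the 5 higher members to 2 while the median stayed positive, at 0.384 and 0.317. The summed FPKM of the 9 T and NK cell markers was also higher in the CD150neg library of each mouse, at 5.95 to 11.4 against 4.85 to 6.21, and its part in this list was not tested. The 8 B cell markers summed to 8.38 to 24.1 in the CD150lo HSC and 9.56 to 21.9 in the CD150neg MPP and were higher in the MPP in 3 of 5 mice.

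Most cytokine receptor genes that passed the unadjusted level were higher in the MPP. Of 33 kept receptor genes 8 were higher and 2 lower (Tek and Il11ra1), with a median of 0.105. Il17ra, the common subunit of the interleukin 17 receptors, was at 28.3, 31.6, 27.7, 38.9 and 38.7 in the CD150lo HSC and at 43.9, 52.2, 48.3, 42.4 and 49.4 in the CD150neg MPP. The groups did not overlap and the difference was 0.51 (SE 0.12, adjusted p = 0.103). Il1r1, the signaling receptor of interleukin 1, differed by 0.72 (SE 0.18), Il10ra by 0.80 (SE 0.23) and Il6ra by 0.44 (SE 0.20). Flt3, Csf2rb, Ifnar2 and Il12rb1 were also among the 8. Without mouse 2 the higher receptors numbered 4.

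Among 38 kept genes of homing and adhesion 8 were higher and 6 lower, and their median was 0.003. The higher ones included the leukocyte integrin gene Itgal at 0.71 (SE 0.24) and the hyaluronan receptor gene Cd44 at 0.25 (SE 0.11), beside Cd34. The lower ones included the tetraspanin gene Cd9, with levels of 15.9 ± 3.27 and 8.98 ± 2.47, no overlap between groups and a difference of -0.78 (SE 0.19, adjusted p = 0.116). Itgb3, the beta 3 integrin of platelets and stem cells, differed by -0.56 (SE 0.19). Vcam1, the vascular cell adhesion molecule, differed by -1.38 (SE 0.46), with CD150lo levels from 0.842 in mouse 2 to 10.9 in mouse 4. Vcam1 is also on the list of macrophage markers described further on.

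Genes that mark the proliferative state differed little. Of 56 kept genes of mitosis and G2/M 1 passed the unadjusted level as higher (Tubb5) and 0 as lower, with a median of 0.009, and 28 members were positive and 28 negative. Of 45 kept DNA replication genes 1 was higher (Rrm1) and 2 were lower (Cdt1 among them), with a median of 0.029. Mki67, which encodes the Ki-67 antigen of cycling cells, was at 14.1, 17.2, 16.9, 17.6 and 27.2 in the CD150lo HSC and at 18, 17.3, 22.2, 25.1 and 32 in the CD150neg MPP. It was higher in the MPP of each mouse by 0.28 (SE 0.21), with an adjusted p of 0.72 and wide overlap between the groups. Cdk6, the G1 kinase that sets the time to division of quiescent stem cells, was also higher in each mouse, at 44.8 ± 11.6 and 55.5 ± 14.3, and differed by 0.30 (SE 0.13, adjusted p = 0.449). Cdkn1c, the inhibitor p57 associated with quiescence, was at 6.26 ± 1.81 and 5.63 ± 1.98 and was lower in 3 of 5 mice. Of 24 kept genes of G1 cyclins, CDKs and inhibitors 1 was higher (Cdk6) and 0 lower, with a median of -0.115 and 18 negative members. Myc was higher in 3 of 5 mice and differed by 0.24 (SE 0.16), whereas its relative Mycn differed by -0.42 (SE 0.13) and was lower in all 5. Across 32 kept genes of MYC and ribosome biogenesis the median was 0.064.

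The myeloid, megakaryocyte and erythroid lists were examined next. For granulocyte and monocyte priming 2 of 16 kept members were higher and 0 lower. These were Sfpi1, which encodes the factor PU.1 and differed by 0.40 (SE 0.14) without overlap, and Csf2rb at 0.25 (SE 0.12). Mpo, the granule peroxidase of myeloid progenitors, was at 15.1, 0.45, 9.76, 2.24 and 2.45 in the CD150lo HSC and at 1.2, 3.91, 3.21, 6.2 and 5.06 in the CD150neg MPP, with a difference of -0.10 (SE 0.62) that turned positive without mouse 1 or mouse 3. For megakaryocyte and platelet genes 0 of 19 were higher and 2 lower (Cd9 and Itgb3), with a median of -0.104. Vwf, which marks platelet-biased stem cells, was at most 1.01 in all 10 libraries, at 0.724 ± 0.276 and 0.477 ± 0.138, against 5.66 ± 1.05 in CD150hi HSC. For erythroid priming 1 of 13 was lower (Gfi1b) and 0 were higher, and Gata1 did not reach the filter, with 0 to 10 fragments per CD150lo library and 0 to 44 per CD150neg library.

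Grb10, an imprinted adaptor of insulin and growth factor receptors, led the imprinted genes. It was at 9.42, 9.45, 9.06, 8.59 and 9.24 in the CD150lo HSC and at 5.53, 4.48, 6.1, 6.37 and 5.33 in the CD150neg MPP. The groups were far apart for the spread within them, and the difference was -0.64 (SE 0.13, adjusted p = 0.0686). Of 18 kept imprinted genes 3 were lower (Grb10, Rian and Ndn), 0 were higher and 14 were negative, with a median of -0.134. Of 15 kept Hox genes 3 were lower, and besides Hoxb5 these were Hoxa5 at -0.58 (SE 0.16) and Hoxa10 at -0.71 (SE 0.19), neither of which overlapped between groups.

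The other pathway lists had few members past the unadjusted level. Of 32 immediate early genes 3 were higher and 3 lower, among them Fos at -0.34 (SE 0.14) and Jund at -0.44 (SE 0.17). Of 43 kept interferon response genes 4 were higher and 2 lower, and the antiviral membrane protein gene Ifitm2 was at 405 ± 53.3 and 552 ± 83.2 with a difference of 0.44 (SE 0.12). Of 28 kept glycolysis genes 4 were higher and 0 lower, led by Pkm2 (pyruvate kinase) at 0.40 (SE 0.11). Of 29 genes around FoxO, LKB1 and mTOR 1 was higher and 1 lower. The higher one was Foxo3, a factor required for stem cell quiescence, at 40.0 ± 4.18 and 50.1 ± 1.4 with a difference of 0.33 (SE 0.10) and no overlap. The lower one was Deptor, an inhibitor of mTOR, at -0.65 (SE 0.16). Of 29 kept TGF-beta and BMP genes 1 was higher (Acvr1b at 0.66, SE 0.19) and 1 lower (Tgfbr3 at -0.57, SE 0.17). Of 24 kept genes of MHC and antigen presentation 1 was higher (H2-DMa), of 61 kept replication-dependent histone genes 2 were higher and 3 lower, of 6 kept SLAM family genes 1 was higher and 1 lower (Cd48 and Slamf1), and of 8 Gimap genes 0 passed.

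Outside the lists, 1 further group of genes stood close to the threshold. The lower ones were led by Apoe, which encodes the lipid carrier apolipoprotein E. Apoe was at 8.39, 9.75, 13.3, 16.5 and 10.5 in the CD150lo HSC and at 5.65, 5.81, 6.11, 6.12 and 4.36 in the CD150neg MPP. The groups did not overlap, and the difference of -0.91 (SE 0.15) had an adjusted p of 0.0516. Over the alternatives this adjusted p ranged from 0.00106 to 0.26. The low end came from the mean over 9 mice, which takes in 5A3+/del mice. Macrophages also express Apoe, and its highest CD150lo value, in mouse 4, came from the library with the highest macrophage markers. Without mouse 4 the difference was -0.82 (adjusted p = 0.254), without mouse 2 -0.977 (0.162) and without mouse 3 -0.889 (0.189). Leaving out mouse 1 or mouse 5 gave -1.017 (0.0792) and -0.865 (0.0353). The part of macrophages in the Apoe difference was not tested. Aldh1a1, an aldehyde dehydrogenase of retinoid metabolism, was at 6.52 ± 1.96 and 2.41 ± 0.275 and differed by -1.11 (SE 0.23), Sdc2 (syndecan 2) by -0.97 (SE 0.19) and Gng11 (a G protein gamma subunit) by -0.82 (SE 0.17). The higher ones included Sh3bgrl3, at 153 ± 16.6 and 253 ± 49.3 with a difference of 0.71 (SE 0.13), and H2afy, which encodes the histone variant macroH2A1, at 56.8 ± 8.58 and 86.1 ± 8.71 with a difference of 0.60 (SE 0.12). Tmsb10, which binds actin monomers, differed by 0.66 (SE 0.14) and Hnrnpa1, a splicing factor, by 0.54 (SE 0.12). Each of these 7 genes after Apoe had an adjusted p of 0.0686 and the same direction in all 5 mice. That value is a tie of the Benjamini-Hochberg adjustment, shared by genes with limma's unadjusted p from 2.67e-05 (Mmrn1) to 0.000209 (Tek) among those named.

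More genes of ribosomes and the respiratory chain were lower than higher in the CD150neg MPP of the WT mice, and none of them was called. Of 84 kept cytosolic ribosomal protein genes 23 were lower and 0 higher, with a median of -0.126. Rpl7 was at 229 ± 22.1 and 177 ± 7.13, did not overlap between groups and differed by -0.36 (SE 0.09, adjusted p = 0.141). Of 85 kept subunits of oxidative phosphorylation 18 were lower and 1 higher, with a median of -0.152 and with Atp5f1, a subunit of the ATP synthase stalk, at -0.48 (SE 0.13). Of 74 kept mitochondrial ribosomal protein genes 9 were lower and 1 higher, with a median of -0.14 and with Mrps23 at -0.55 (SE 0.15). The 13 genes encoded by the mitochondrial genome had a median of 0.031, which was -0.175 with median scaling, with 2 lower and 0 higher. Processed pseudogenes of ribosomal proteins, whose reads cannot be told apart with certainty from those of their parent genes, were lower in 53 of 114 cases and higher in 1, with a median of -0.239. This last list was added after the data were seen.

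Differences also varied with summed exon length over all protein-coding genes. Protein-coding genes with up to 1616 bases of exon had median differences of -0.16, -0.085, -0.075 and -0.044 in mice 1 to 4 and 0.019 in mouse 5. Those with at least 6463 bases had 0.132, 0.051, 0.064 and 0.024 in mice 1 to 4 and -0.024 in mouse 5. In mouse 5 the median over the ribosomal pseudogenes was -0.025, against -0.356, -0.369, -0.219 and -0.21 in the others. The share of fragments in the mitochondrial ribosomal RNAs was 25.6 to 31.4% in the CD150lo libraries and 20.7 to 27.35% in the CD150neg libraries. With the trend on exon length removed, the lower members numbered 19 of the cytosolic ribosomal proteins and 12 of the oxidative phosphorylation subunits, and the medians were -0.097 and -0.123. Under the same adjustment the medians of the HSC identity and multipotent progenitor lists were -0.264 and 0.408. Over all alternatives the lower cytosolic ribosomal proteins numbered from 10, without mouse 1, to 57, by voom on fragments, and the lower oxidative phosphorylation subunits from 5, over 9 mice, to 24, while both medians stayed negative. The part of transcript length in these lists beyond this adjustment was not tested.

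**Figure D3:**
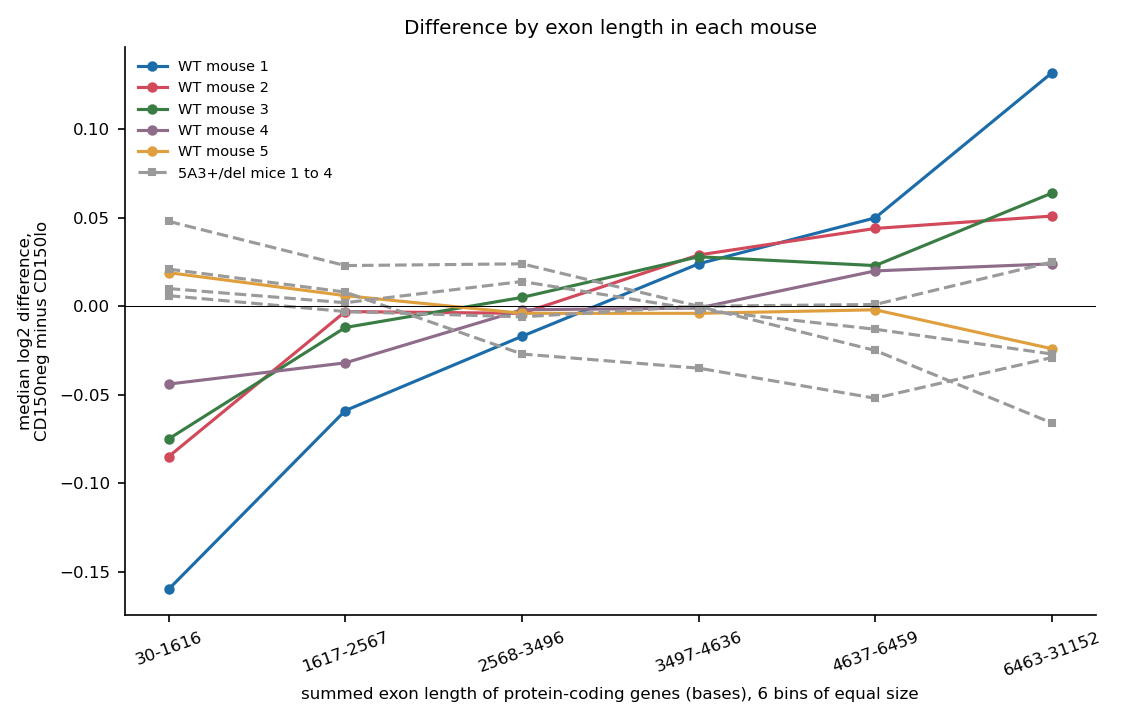
Median log2 difference between CD150neg and CD150lo cells (vertical axis) in 6 bins of protein-coding genes by summed exon length in bases (horizontal axis), for each WT mouse in color and for 4 5A3+/del mice in gray. WT mice 1 to 4 go from negative to positive values with length, from -0.16 to 0.132 in mouse 1, whereas WT mouse 5 and the 5A3+/del mice do not.

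Markers of mature phagocytes were higher in the CD150lo HSC. The 9 neutrophil markers summed to 1370.0, 133, 12.8, 280.0 and 199 FPKM in the CD150lo libraries of mice 1 to 5 and to 126, 14.6, 52.1, 76.5 and 56.1 in the CD150neg libraries. The sum was lower in the MPP in 4 of 5 mice, and 1 library, the CD150lo library of mouse 1, stood far above the rest. S100a8, an antimicrobial calcium-binding protein of neutrophils, was at 631 there and at 7.2 in the CD150lo library of mouse 3. Of the 6 kept markers 4 were lower at the unadjusted level, and 0 were without mouse 1. The 9 measured macrophage markers summed to 22.1, 21.5, 29.6, 62.5 and 26.6 in the CD150lo libraries and to 20, 21.4, 18.9, 24.1 and 18.9 in the CD150neg libraries, lower in the MPP in 5 of 5 mice. Of the 8 kept ones 6 were lower, among them the complement gene C1qa, and 1 was without mouse 4. The erythroid cell markers summed to 47.9 to 97.9 and 27.6 to 110.0, the megakaryocyte markers to 31 to 45.5 and 29.5 to 57.3, the stromal and endothelial markers to 8.78 to 11.7 and 8.29 to 10.6, and the mast cell and basophil markers to 0.662 to 4.79 and 0.202 to 2.23. None of these 4 lists had a kept member past the unadjusted level. Among defining markers Adipoq and Prss34 were at 0 in all 10 libraries. Without mouse 4, where the macrophage markers were highest, the HSC identity list had 14 lower members and a median of -0.206. Without mouse 1, where the neutrophil markers were highest, it had 16 lower members and a median of -0.19. Leaving out mouse 2, 3 or 5 instead gave medians of -0.202, -0.219 and -0.186. The part of phagocytes in the differences of this list was not tested.

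**Figure D4:**
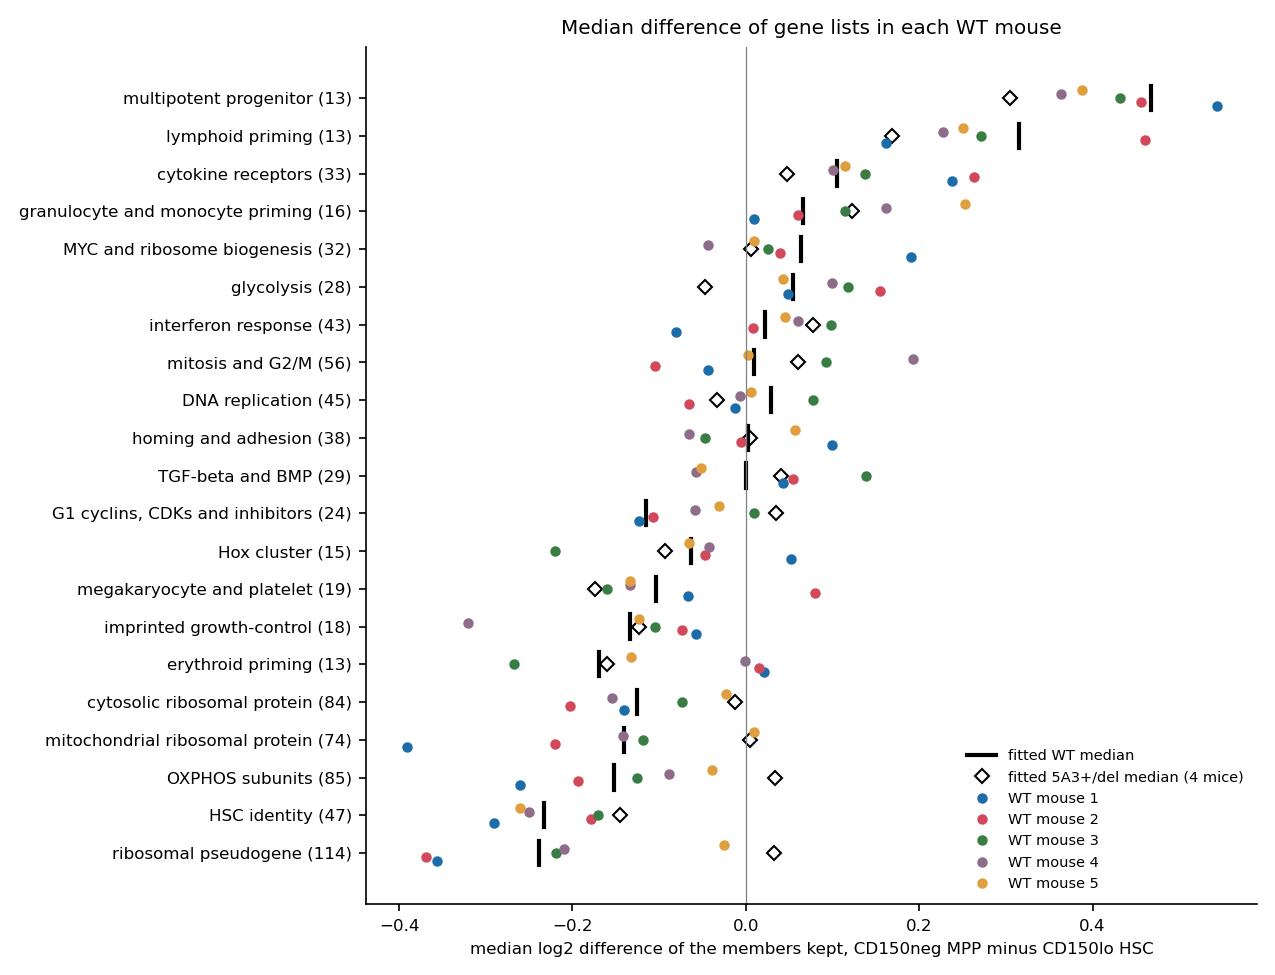
Median log2 difference of the kept members of 21 gene lists (horizontal axis, number kept in parentheses). Black bars are fitted over the WT mice and diamonds over the 5A3+/del mice, of which 4 had both populations. Colored points are the values in each WT mouse. The multipotent progenitor and HSC identity lists keep their sign in every WT mouse and in the fit over the 5A3+/del mice, while the ribosomal and respiratory chain lists lie near 0 in WT mouse 5 and in that fit.

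The same step was measured in 4 5A3+/del mice, which share no library with the WT mice. The libraries of both genotypes were normalized and fitted together, so the differences share the estimate of the spread. The fitted 5A3+/del differences also draw on CD150hi libraries and on a 5A3+/del mouse that had no CD150neg library. A test of the difference between genotypes called 0 genes by limma (875, or 5.68%, had an unadjusted p under 0.05), and the comparison within the 5A3+/del mice called 2. Tgm2 differed by -0.66 in the 5A3+/del mice, Apoe by -0.92, Grb10 by -0.74, Tek by -0.69, Gata2 by -0.46, Flt3 by 0.67, Satb1 by 0.56 and Cd48 by 0.88. Other genes named above had the opposite sign there or a value near 0. Hnrnpa1 differed by -0.07, Acvr1b by -0.25, Ly6c1 by -0.56, Rrm1 by -0.23, Dach1 by -0.06 and Hoxa5 by 0.17. The median of the HSC identity list was 0.036, -0.177, -0.27 and -0.273 in the 4 mice and that of the multipotent progenitor list 0.517, 0.28, 0.335 and 0.319. The fitted medians of these lists were -0.145 and 0.305, with 15 of 47 members lower and 6 of 13 higher at the unadjusted level. That of the lymphoid priming list was 0.169, with 3 of 13 members higher. Of its members named above, Dntt and Notch1 differed by 0.68 and 0.38 there. Mef2c, Ccr9 and Ikzf1 differed by only 0.07, 0.08 and 0.11. The cytosolic ribosomal protein, oxidative phosphorylation and ribosomal pseudogene lists had medians of -0.013, 0.034 and 0.032, with 1 lower member in each. Of the protein-coding genes past the unadjusted level in WT mice, 66.6% of the 536 higher ones and 62.5% of the 614 lower ones had the same sign in 5A3+/del mice, where 48.8% of all genes were positive and 51.2% negative. Of the 172 pseudogenes that were lower in WT mice 37.2% had the same sign.

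**Figure D5:**
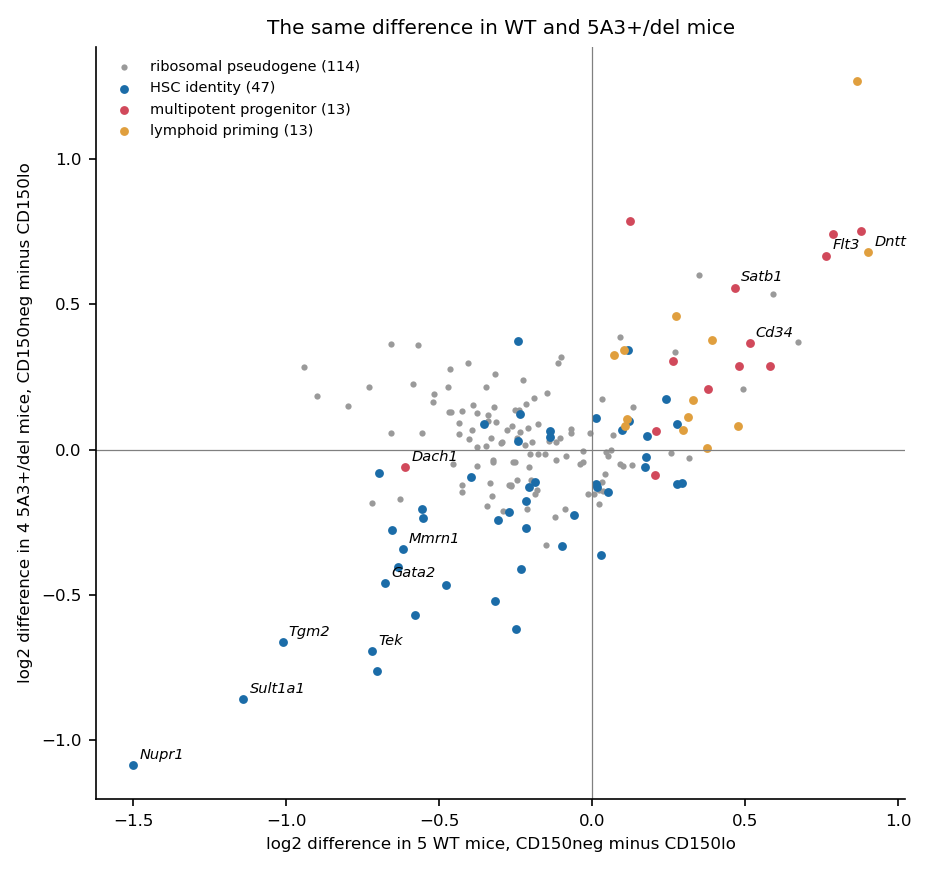
Log2 difference between CD150neg and CD150lo cells, fitted in 5 WT mice (horizontal axis) and over the 5A3+/del mice (vertical axis), for the members of 4 gene lists. Of the 5A3+/del mice 4 had both populations. Genes of stem cell identity such as Nupr1, Sult1a1 and Tgm2 lie at the lower left and Flt3 and Dntt at the upper right, while the ribosomal pseudogenes spread along the horizontal axis around 0 on the vertical one.

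The fitted WT and 5A3+/del differences were also averaged, with equal weight for each genotype, in an analysis added after the data were seen. This average is named the mean over 9 mice, after the mice with both populations. It called 23 genes higher and 25 lower in the CD150neg MPP. Of these 48 genes 45 were protein coding, and 18 were also among the 65 that the random block called in WT mice. The higher ones included Flt3, Satb1, Cd48, H2afy, Sh3bgrl3 and Tmsb10. The lower ones included Tgm2, Apoe, Mmrn1, Slamf1, Gata2, Tek, Nupr1, Sult1a1, Esam, Itgb3, Mllt3, Grb10, Aldh1a1 and Sdc2. The list of HSC identity had 8 called members, all lower, and the multipotent progenitor list had 3, all higher. The ribosomal and respiratory chain lists had 0 called members by limma, with 12, 3 and 5 members lower at the unadjusted level among the cytosolic ribosomal, mitochondrial ribosomal and oxidative phosphorylation genes.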

How the data were processed

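The authors aligned paired reads to mm9 and deposited 1 table of FPKM per gene and library. Their processing notes name Bowtie 0.12.2 and HTSeq, and the strand setting of the counting is not given in the sources used here. RNA was amplified (NuGEN Ovation) before library preparation. Whole fragments were recovered from the steps of low FPKM values, and 98.27 to 98.68% of these values in the 10 libraries were whole within 0.02 of a fragment. Genes were kept where 4 or more of the 29 libraries reached an FPKM of 1 (15409 of 30025), log2(FPKM + 1) values were quantile-normalized, and limma 3.58.1 in R 4.3.3 was fitted over 29 libraries with a fixed block for each of 10 mice and a population term within genotype (median residual degrees of freedom 15). The pairing is by animal. Deviations of libraries of the same WT mouse correlated at 0.082 to 0.235, and each CD150lo library matched its own mouse best. For mouse 1 the margin was small, with 0.082 against 0.073 for the closest other mouse. P-values are two-sided with Benjamini-Hochberg adjustment. The fit was tested on simulated data.

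The naming rule covered up to 15 called genes per direction (and the 5 largest) that moved 1 way in all 5 mice with a mean of at least 3 in the higher population, the sort markers, up to 5 called members per list, and Slamf1, Procr, Mecom, Hlf, Cd34, Flt3, Mki67, Cdk6, Cdkn1c, Myc, Vwf, Mpo, Dntt and Gata1. The comparison, the lists and the rule were chosen with earlier results of these data known. Since only Tgm2 was called, up to 5 members per list at an unadjusted p under 0.05 and 12 protein-coding genes per direction with the smallest p were added after the values were seen. Gene positions are from GENCODE vM1, matched for 97.52% of genes, and promoters from RefSeq. The SE cover the residual spread among the 29 libraries of all 10 mice, not that of the 10 compared libraries alone, and extend to no other mice. Alternatives changed the pseudocount, filter, normalization, block, libraries, variance prior and unit. Some members of the lists are counted but not reported here by name.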

Additional observations from a re-analysis of the deposited data

Results flagged for a closer look

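In 6 of 66 groups of 5 libraries tested, 1 library stood apart from the other 4 by the gap test at 95%. Chance flags about 1 in 20 groups, or 3.3 of 66. All 6 were CD150lo libraries. In mouse 1 the library had 38797621 fragments, against 25100934 to 28457883 in the others, and its neutrophil markers summed to 1368 FPKM against 12.8 to 280.0. In mouse 4 the macrophage markers summed to 62.5 FPKM against 21.5 to 29.6, and Ly6a was at 173 against 121 to 136. In mouse 5 Mki67 was at 27.2 against 14.1 to 17.6. In mouse 3 the share of fragments in mt-Rnr1 and mt-Rnr2 was 31.4% against 25.6 to 27.1%.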

How the results depend on the processing

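Counts of called genes, higher and lower in the CD150neg MPP, were 0 and 1 in the reported fit. They were 12 and 24 where 5 or more libraries had to reach an FPKM of 3, 2 and 6 with no filter, 1 and 6 with a pseudocount of 0.1, 2 and 8 with 0.5, 14 and 42 with a trend in the variance prior, 11 and 18 by voom on recovered fragments, 0 and 0 with the 10 or the 15 WT libraries alone, and 0 and 1 with median scaling or without normalization. With no replicate block they were 5 and 24, and with a random replicate block 16 and 49. In alternatives added after the data were seen they were 1 and 3 without the exon-length trend and 23 and 25 over 9 mice. Leaving out each WT mouse gave 0 to 12 higher and 0 to 41 lower, the highest without mouse 5. Genes that differed between genotypes numbered 0, and 1 with no filter, and 0 to 1 when a WT mouse was left out. The causes of these changes were not tested.

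Of 2389 values of 126 named genes under the alternatives, 134 newly passed the threshold (39 genes), 3 lost it (Tgm2) and 16 changed sign, none of them called. Over 9 mice Kit was at -0.056, Ly6a at -0.022, Ptprc at 0.02, Mpo at 0.278 and Hist1h2ak at 0.073. With median scaling Kit was at -0.068 and Ly6a at -0.042, by voom Ly6a was at -0.05, and with a pseudocount of 0.1 Mpo was at 0.052. Leaving out each mouse in turn gave -0.082 to 0.155 for Ly6a, -0.17 to 0.026 for Itga2b, -0.144 to 0.141 for Ptprc, -0.369 to 0.04 for Cdkn1c and -0.565 to 0.593 for Mpo. The median over all genes lay between -0.006 and 0.049 in every alternative. The number of mice limits the precision, and Slamf1 and Nupr1 also rest on few fragments in the MPP.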

Other observations

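Xist, the RNA of the inactive X chromosome, was at 234 and 319 FPKM in the CD150lo and CD150neg libraries of mouse 3 and at 0.0387 to 0.409 in the 8 libraries of the other mice, and the labels give no sex. Both libraries of mouse 3 enter each comparison as a pair, and leaving that mouse out gave 1 higher and 1 lower call.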
